A study of Homo sapiens with 6 samples.

Results

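The genes described here are the heat shock proteins and the partner proteins that work with them: HSP70, HSP110, HSP90, the mitochondrial chaperonin, the small heat shock proteins, the J proteins of the DNAJA, DNAJB and DNAJC classes, the BAG cochaperones and the heat shock factors HSF1 and HSF2. They were chosen by a rule on symbols alone, which was set with earlier results of these data known. HSF1 and HSF2 were taken with every symbol that begins with a family stem and a number, and symbols ending in the P of a pseudogene were dropped. The pattern matched 196 symbols, of which 105 were dropped, and 91 genes of the 59653 in the table were left. The drop also took HSPBP1 and HSPBAP1, which are genes and not pseudogenes, and 9 of the 91 are antisense, divergent or readthrough transcripts or, for BAGE2, a gene of an unrelated family. HSPA7, DNAJB3 and BAGE2 are annotated as pseudogenes but stayed, because their symbols do not end in P. Of the 91 genes, 74 had enough counts to be tested and 17 did not. None of the 74 was tested because of counts in 1 group alone.

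RNA was measured in SK-OV3, a human ovarian cancer cell line labelled as wild type, 48 h after transfection with siPVT1, a pool of siRNAs against the long non-coding RNA PVT1, or with siControl, a non-targeting pool. Each group had 3 libraries. Nothing says that they came from separate cultures, so p-values measure the spread between these samples, which may be technical. Each siRNA was used as 1 pool, so a response to lower PVT1 and a response to other targets of the pool cannot be told apart. No untransfected group was measured, so siControl cannot be taken as the level of unstressed cells. Words such as lower, fell and rose compare siPVT1 with siControl only, and which group differed from untransfected cells was not tested. The total count was between 28383171 and 35059576 per library, and mitochondrially encoded genes took 5.26 to 5.81% of it in siControl and 5.75 to 7.00% in siPVT1. PVT1 itself was at 3298, 4090.5 and 3377 normalized counts in siControl replicates 1 to 3 and at 2350, 2111 and 2062 in siPVT1, which is a log2 fold change of −0.72 (standard error, SE, 0.097, edgeR adjusted p = 0.000342). Normalized counts are counts scaled to the same effective library size, and every log2 fold change is siPVT1 over siControl. Keratin genes KRT8 and KRT18 and the lineage factor PAX8 were counted well in both groups, with the lowest mean of the 3 at 2627 normalized counts for PAX8 in siControl, whereas the epithelial markers EPCAM and MUC1 had means of 96.7 and 6.33 there. Marker levels were not constant. PAX8 had a mean of 5254 in siPVT1, and KRT8 and KRT18 had log2 fold changes of 0.32 and 0.37. KRT19 had means of 256 in siControl and 1261 in siPVT1, and ERBB2 of 1249 and 929. The cause of these shifts was not tested. Of the 6 markers of other cell types, CD3E was at 0 in every library and PTPRC at no more than 2.02 normalized counts, and DES and ALB stayed at or below 7.62 and 21.2. The endothelial genes PECAM1 (38 to 299) and VWF (24 to 77) were higher in siPVT1, and their part in the results was not tested.

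Heat shock proteins are molecular chaperones. HSP70 proteins bind unfolded stretches of other proteins in a cycle driven by ATP. J proteins deliver clients to HSP70 and start its ATP hydrolysis, while HSP110 and most BAG proteins release its nucleotide. HSP90 acts later on clients such as kinases and steroid receptors, and small heat shock proteins hold unfolded proteins without ATP. Each main compartment has its own set: HSPA8, HSPA1A and HSP90AA1 work in the cytosol, HSPA5 (BiP) and HSP90B1 (GRP94) in the endoplasmic reticulum (ER), and HSPA9 (mortalin) with the chaperonin HSPD1 and HSPE1 in mitochondria. HSF1 is the main transcription factor of the cytosolic heat shock response and binds inverted repeats of GAA, called heat shock elements. Chaperones of the ER are instead induced by the unfolded protein response through the ER stress response element.

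Promoter sequence, which the rule on symbols did not use, is described first. The lower and other genes compared here were defined by the expression calls given below. RefSeq windows on GRCh38.p14, from 250 bases before to 50 after a start site, were found for 78 of the 91 genes. A pair of inverted units, GAANNTTC or TTCNNGAA, was searched on both strands, and matches to the 2 forms can overlap each other. It was present for 11 of the 15 genes described below as lower in siPVT1 (73.3%), for 10 of the 53 other tested genes with a window (18.9%) and for 4417 of all 27305 genes with a window (16.2%). Among all genes lower in siPVT1 by the same thresholds it was present for 165 of 1062 (15.5%). By compartment, 19 of 40 genes of the cytosol or nucleus (47.5%), 3 of 10 of mitochondria and 0 of 13 of the ER held a match. A longer form, GAANNTTCNNGAA, was present in 0.608% of all genes with a window and in 5 of the 15 lower genes. It was also present in 2 of the 53 other tested genes (3.77%), HSP90AA1 (log2 fold change −0.35) and DNAJB6 (0.74). HSPB1 (0.51) held a pair of units, so DNAJB6 and HSPB1 had matches and were higher by the adjusted p. The ER stress response element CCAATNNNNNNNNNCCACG was present in 0.0916% of all genes with a window and in 2 of the 78, HSPA5 and HSP90B1, both ER chaperones. These are matches of letters in a window, not measured binding sites. A gene without a match, such as HSPH1, DNAJC2 or DNAJC11 here, lacks only these letters in this window.

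The following stretches end before the start site, are written 5′ to 3′ on the strand of the gene and show the matches in capitals. The first set holds the pair of units in HSP70, HSP90, small heat shock, J protein and chaperonin genes that were lower in siPVT1, with 1 J protein gene, DNAJA4, standing for the 3 that had a match before the start site (DNAJA1 and DNAJB4 are not printed), and HSPA1A and HSPA1B shown together because their counts are hard to separate. HSPA6 lies on the plus strand at chr1:161524350-161524488, HSPA8 on the minus strand at chr11:123062169-123062376, HSPA1A and HSPA1B on the plus strand at chr6:31815427-31815454 and chr6:31827623-31827650. HSPB8 (chr12:119178833-119178860), DNAJA4 (chr15:78264461-78264527) and HSP90AB1 (chr6:44247768-44247853) are on the plus strand, and HSPD1 (chr2:197500058-197500090) is on the minus strand.
HSPA6: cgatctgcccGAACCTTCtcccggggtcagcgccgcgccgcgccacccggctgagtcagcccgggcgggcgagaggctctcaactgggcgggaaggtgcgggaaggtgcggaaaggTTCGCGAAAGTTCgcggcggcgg
HSPA8: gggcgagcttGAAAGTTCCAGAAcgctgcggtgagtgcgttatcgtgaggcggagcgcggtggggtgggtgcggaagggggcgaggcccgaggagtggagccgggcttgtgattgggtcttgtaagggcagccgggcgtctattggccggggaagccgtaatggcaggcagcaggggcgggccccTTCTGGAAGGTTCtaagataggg
HSPA1A: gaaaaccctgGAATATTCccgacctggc
HSPA1B: gaaacccctgGAATATTCccgacctggc
HSPB8: catcacctccGAATATTCctgtgacagg
DNAJA4: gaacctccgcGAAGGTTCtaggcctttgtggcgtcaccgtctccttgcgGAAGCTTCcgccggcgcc
HSP90AB1: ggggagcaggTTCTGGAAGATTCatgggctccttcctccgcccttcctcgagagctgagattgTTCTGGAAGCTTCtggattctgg
HSPD1: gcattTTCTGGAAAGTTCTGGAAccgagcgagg

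The second set holds the ER stress response element in the 2 ER chaperones that had it. HSPA5 lies on the minus strand at chr9:125241381-125241419, and HSP90B1, with 2 matches on opposite strands, on the plus strand at chr12:103930206-103930349.
HSPA5: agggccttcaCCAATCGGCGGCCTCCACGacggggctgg
HSP90B1: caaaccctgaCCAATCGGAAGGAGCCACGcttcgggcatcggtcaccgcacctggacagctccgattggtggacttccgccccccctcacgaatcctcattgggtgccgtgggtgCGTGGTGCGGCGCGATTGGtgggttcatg

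Cytosolic and mitochondrial chaperone genes were mostly lower in siPVT1, and ER chaperone genes were not. With edgeR's quasi-likelihood test and the study's thresholds, a Benjamini-Hochberg adjusted p below 0.05 and a change of at least 2-fold, 15 of the 74 tested genes were lower and 4 were higher. Over all 19008 genes tested, 9.64% were lower and 11.8% were higher by these thresholds. By the adjusted p alone, 34 of the 74 were lower and 19 higher, against 28.4% and 29.5% of all genes. In 34 of the 74 every siPVT1 library lay below every siControl library and in 22 every one lay above, against 32.3% and 33.2% of all genes, so the share above was near that of all genes. The median log2 fold change was −0.21 for the 74 genes, or −0.34 without siPVT1 replicate 3, and 0.001 for all genes tested. No test was made over the list itself.

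Compartments were assigned by hand from textbook knowledge. In the cytosol or nucleus 38 of 47 genes were tested, 12 were lower and 1 higher past both thresholds, and the median was −0.51. In mitochondria all 10 genes were tested, 2 were lower and 1 higher, and the median was −0.77. By the adjusted p alone, 23 of the 38 and 7 of the 10 were lower, and 7 and 1 were higher. Among all genes, 28.4% were lower and 29.5% higher by the adjusted p, and 9.64% and 11.8% past both thresholds. In the ER all 14 genes were tested, and 0 were lower and 2 higher past both thresholds with a median of 0.14, which was −0.0054 when libraries were scaled by the total count and 0.026 without siPVT1 replicate 3. DESeq2 also gave 0 lower and 2 higher, and at an unadjusted p below 0.05 edgeR had 2 lower and 5 higher ER genes. By the adjusted p, 2 ER genes were lower and 4 higher. At the unadjusted p, 5822 of all 19008 genes were lower and 6051 higher with edgeR. The shares of higher ER genes were thus near those of all genes. A further 7 tested genes of membranes, vesicles or cilia, or with no assigned place, had a median of 0.33. None of these 7 passed both thresholds with edgeR or DESeq2, and 6 were higher at an unadjusted p below 0.05, which they also were by the adjusted p. The 5 tested antisense, divergent or readthrough transcripts were not given a compartment, and 1 of them, DNAJC9-AS1, was lower past both thresholds.

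**Figure D1:**
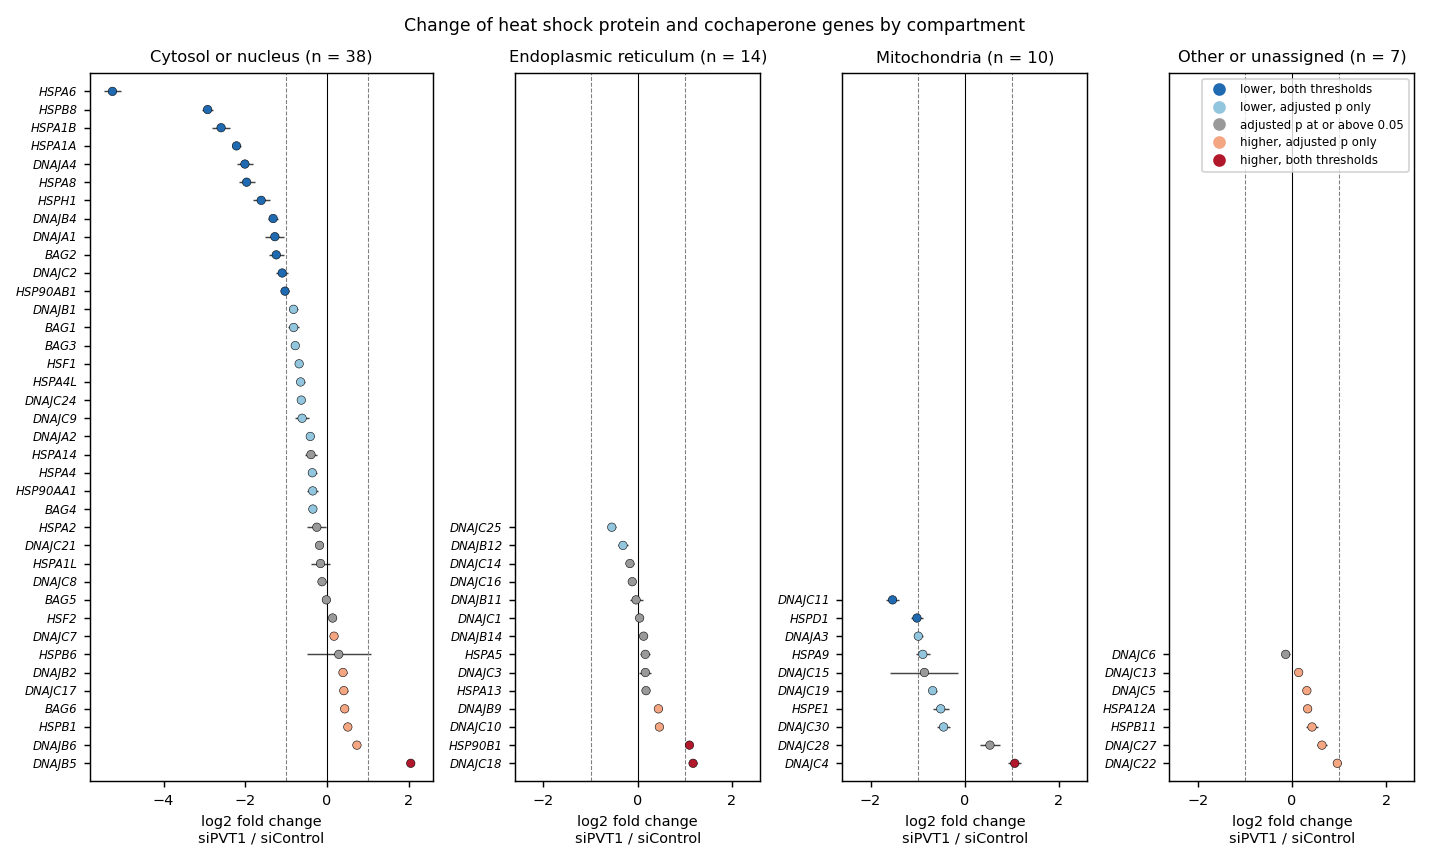
Each point is the log2 fold change of 1 tested gene (siPVT1 over siControl, edgeR, bars 1 standard error), grouped by compartment. The cytosol or nucleus group holds 12 of the 15 genes lower past both thresholds, and the ER group holds none of them and 2 of the 4 higher ones. The 5 tested transcripts without a compartment, 1 of them lower past both thresholds, are not drawn.

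The share of all counts that these genes took was also read by compartment. All 91 genes together took 1.74% ± 0.033 (SD, n = 3) of the counts in siControl and 1.09% ± 0.157 in siPVT1. HSPA8 alone accounted for 0.337% and 0.0778%. The share of cytosolic or nuclear genes was 1.20% ± 0.022 in siControl and 0.584% ± 0.103 in siPVT1, and that of mitochondrial genes was 0.208% ± 0.0087 and 0.0986% ± 0.0194. The ER genes took 0.282% ± 0.0033 in siControl and 0.354% ± 0.0319 in siPVT1, and HSP90B1 carried this rise. HSP90B1 alone took 0.0775% ± 0.00085 and 0.1496% ± 0.0056, while the other 13 ER genes took 0.204% ± 0.0025 and 0.204% ± 0.0263 with overlapping groups. Without HSPA8, the cytosolic or nuclear share was still lower, at 0.860% ± 0.0143 and 0.506% ± 0.0786. For each whole compartment the groups did not overlap, and siPVT1 replicate 3 had the highest share of the 3 siPVT1 libraries in each compartment. Because these are shares of bulk RNA, fewer transcripts per cell and fewer cells that express them cannot be told apart.

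**Figure D2:**
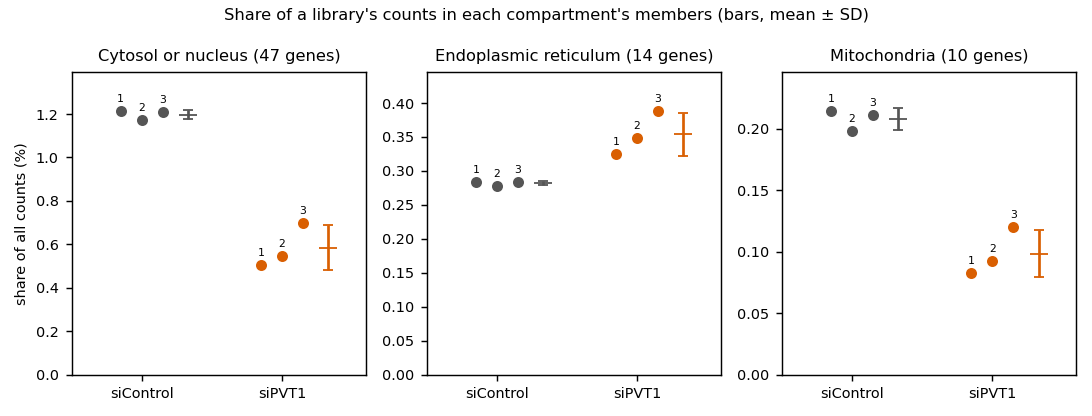
Points show the percentage of a library's counts taken by the genes of each compartment, numbered by replicate, with bars for the mean and SD of 3 libraries. Cytosolic or nuclear and mitochondrial genes were lower in all 3 siPVT1 libraries, and the ER share was higher in all 3 with HSP90B1 but overlapped between the groups without it.

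The gene with the largest fall, HSPA6, is an HSP70. Of 13 HSP70 genes, 11 were tested, and the 4 that passed both thresholds were all lower and all cytosolic. Among all genes, 9.64% were lower past both thresholds. Of the 7 tested HSP70 genes of the cytosol or nucleus, 3 did not pass the adjusted p. These were HSPA14 at −0.39 (edgeR adjusted p = 0.0562), HSPA2 at −0.25 (edgeR adjusted p = 0.392) and HSPA1L at −0.16 (edgeR adjusted p = 0.590). HSPA6, an HSP70 that is almost silent in unstressed cells and strongly induced by stress, was at 360.0, 298 and 350.1 normalized counts in siControl and at 5.57, 12.0 and 8.46 in siPVT1. Its level in siPVT1 was 2.58% of that in siControl, with a log2 fold change of −5.25 (SE 0.206, edgeR adjusted p = 1.13e-06). HSPA7, its closest relative and annotated as an unprocessed pseudogene, was counted at 4, 3 and 3 in siControl and at 0 in all 3 siPVT1 libraries. It had too few counts to pass the filter. In the fit without a filter it was lower past both thresholds, but it entered that fit only through siControl. Its call there is a description and not support for a fall. Reads that fit both genes could be split between them by the authors' counting.

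The stress-inducible pair HSPA1A and HSPA1B encodes nearly the same protein from neighbouring genes. HSPA1A was at 5153, 4759 and 5198 normalized counts in siControl and at 924, 1040.2 and 1284 in siPVT1, and its log2 fold change was −2.22 (SE 0.117, edgeR adjusted p = 3.38e-06). HSPA1B was at 3494, 2753 and 3369.7 in siControl and at 365, 512 and 710.4 in siPVT1, a log2 fold change of −2.59 (SE 0.216, edgeR adjusted p = 2.83e-05). The groups did not overlap for either gene. Since the division of reads between them is an estimate, their sum is the firmer value: it was 8242 ± 633 (SD, n = 3) normalized counts in siControl and 1612 ± 356 in siPVT1. HSPA1B made up 38.8% ± 1.94 of that sum in siControl and 32.3% ± 3.69 in siPVT1. For both measures the exact two-sided permutation test gave p = 0.1, which is the smallest that 3 libraries against 3 allow.

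HSPA8, the constitutive HSC70 and the most abundant of the 74 genes per kb of transcript in siControl, was also lower. It was at 102961, 94321 and 102068 normalized counts in siControl and at 19865, 21636 and 35055 in siPVT1. The mean thus fell to 25.6% of siControl, a log2 fold change of −1.97 (SE 0.199, edgeR adjusted p = 7.39e-05). HSPA9, the mitochondrial HSP70, passed the adjusted p but not the fold threshold, with 19923, 18151 and 19251 normalized counts in siControl, 8323, 9576 and 12993 in siPVT1 and a log2 fold change of −0.89 (edgeR adjusted p = 0.00106). HSPA5, the ER HSP70, was at 37151, 34763 and 36686 in siControl and at 35109, 39173 and 47202 in siPVT1, so the groups overlapped. Its log2 fold change of 0.16 (SE 0.103) had an edgeR adjusted p of 0.213. The other HSP70 of the ER, HSPA13, was at 0.18 (edgeR adjusted p = 0.0651). HSPA12A, a distant relative of the family, was the only HSP70 gene higher by the adjusted p, with a log2 fold change of 0.33.

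**Figure D3:**
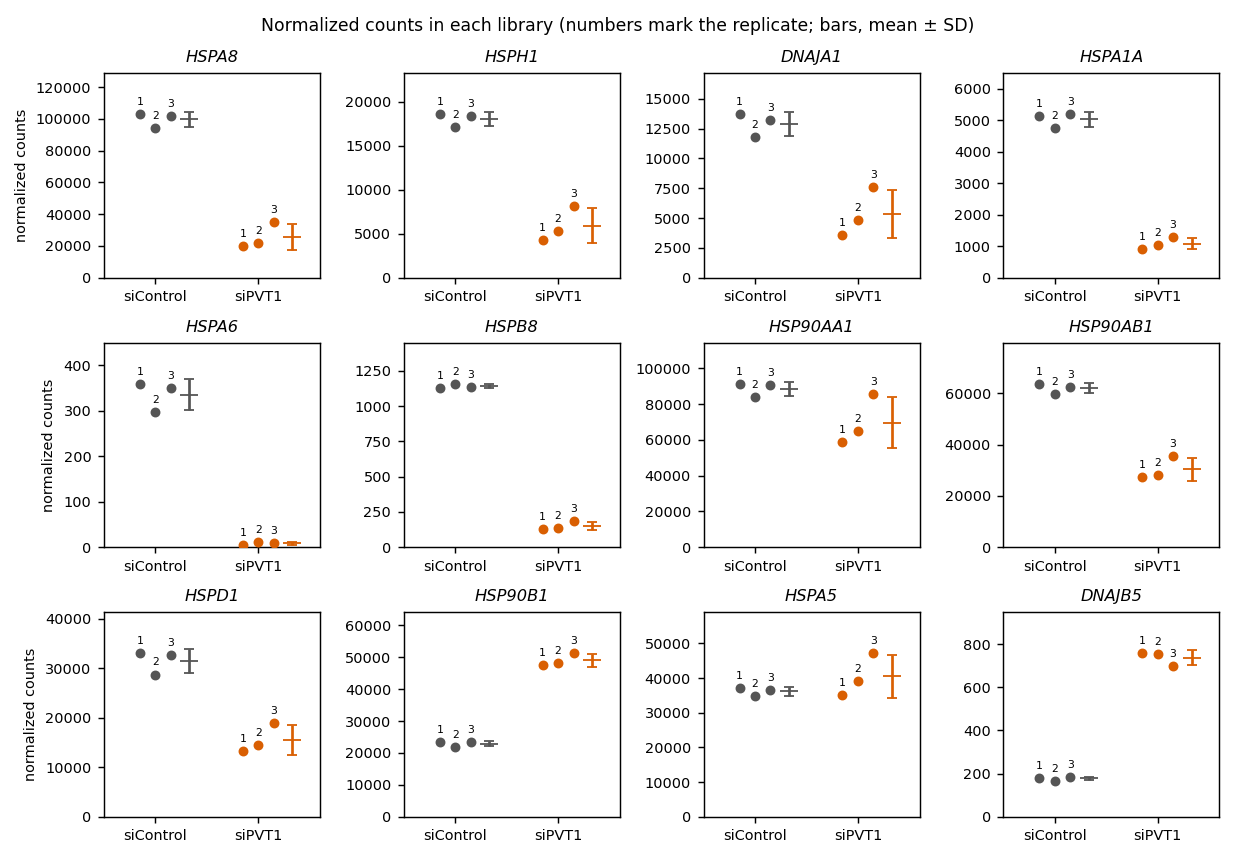
Points give the normalized counts of 12 chaperone genes in each library on linear axes from 0, numbered by replicate, with the mean and SD of 3 libraries beside them. HSPA6 is between 298 and 360.0 in siControl and close to the axis in siPVT1, while HSPA5 overlaps between the groups and HSP90B1 is higher in all 3 siPVT1 libraries.

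The HSP110 proteins, relatives of HSP70 that act as its nucleotide exchange factors, were lower by the adjusted p in all 3 cases. By that measure 28.4% of all genes were lower. HSPH1 passed both thresholds, with 18576, 17142 and 18326 normalized counts in siControl and 4309, 5269.7 and 8117 in siPVT1 and a log2 fold change of −1.61 (SE 0.204, edgeR adjusted p = 0.000252). HSPA4L was at −0.64 and HSPA4 at −0.36. The ratio of HSPA8 to HSPH1 counts was 5.54 ± 0.034 (SD, n = 3) in siControl and 4.34 ± 0.253 in siPVT1.

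The 3 HSP90 genes differed by compartment and between the cytosolic paralogs. HSP90AB1, the constitutive cytosolic form, was at 63782, 59789.5 and 62326 normalized counts in siControl and at 27388, 28189.7 and 35663 in siPVT1, a log2 fold change of −1.03 (SE 0.102, edgeR adjusted p = 6.77e-05). HSP90AA1, the inducible form, was at 91402, 84161 and 90410.4 in siControl and at 58686, 64727 and 85568 in siPVT1. The highest siPVT1 library of HSP90AA1 lay above the lowest siControl library, and the log2 fold change of −0.35 (SE 0.129) had an edgeR adjusted p of 0.0468. With 1 library left out, that adjusted p stayed below 0.05 only without siPVT1 replicate 3 and was between 0.0765 and 0.130 in the other 5 fits. The ratio of HSP90AA1 to HSP90AB1 was 1.43 ± 0.022 (SD, n = 3) in siControl and 2.28 ± 0.129 in siPVT1 without overlap (exact two-sided permutation p = 0.1, the smallest possible).

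HSP90B1, the HSP90 of the ER, was higher. It was at 23489, 21932 and 23297 normalized counts in siControl and at 47637, 48262 and 51294 in siPVT1, a log2 fold change of 1.10 (SE 0.060, edgeR adjusted p = 3.74e-06). The count ratio of HSP90AA1 to HSP90B1 was 3.87 ± 0.029 (SD, n = 3) in siControl and 1.41 ± 0.227 in siPVT1. For HSP70, the ratio of HSPA8 to HSPA5 was 2.76 ± 0.037 in siControl and 0.620 ± 0.106 in siPVT1. Neither ratio overlapped between the groups, and a ratio within a library does not depend on how libraries were scaled. HSP90B1 lost the 2-fold threshold when libraries were scaled by the total count (0.95) and in a test against a 2-fold change.

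In mitochondria, HSPD1 and HSPE1 form the barrel and the lid of the chaperonin. HSPD1 was at 33002, 28699 and 32688 normalized counts in siControl and at 13303, 14394 and 18959.7 in siPVT1, a log2 fold change of −1.02 (SE 0.130, edgeR adjusted p = 0.000271). HSPE1, transcribed from the same region in the other direction, was at 4909, 3887 and 4813 in siControl and at 2510.1, 2986 and 4046 in siPVT1. Its groups overlapped, with a log2 fold change of −0.51 (SE 0.169, edgeR adjusted p = 0.0301). The ratio of HSPD1 to HSPE1 was 6.97 ± 0.363 (SD, n = 3) in siControl and 4.94 ± 0.323 in siPVT1. HSPD1 was close to the fold threshold and fell short of it without siControl replicate 1, siControl replicate 3, siPVT1 replicate 1 or siPVT1 replicate 2.

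Of the 8 small heat shock proteins 4 were tested, and they did not move one way. HSPB8, which works with BAG3 and HSP70 to send damaged proteins to autophagy, was at 1128, 1159 and 1135 normalized counts in siControl and at 129, 138 and 182 in siPVT1. The siPVT1 mean was 13.1% of the siControl mean, with a log2 fold change of −2.92 (SE 0.126, edgeR adjusted p = 1.58e-06). HSPB1 (HSP27), a stress-inducible small heat shock protein, was at 1244, 1168 and 1277 in siControl and at 1737, 1808 and 1716 in siPVT1, a log2 fold change of 0.51 (SE 0.064, edgeR adjusted p = 0.000232), so it was higher but under 2-fold. HSPB11, which is part of the ciliary transport machinery and not a classical chaperone, was at 0.43.

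All 4 DNAJA genes, the J proteins closest in form to bacterial DnaJ, were lower by the adjusted p, and the groups did not overlap for any of them. Among all genes, 28.4% were lower by the adjusted p, and in 32.3% every siPVT1 library lay below every siControl library. DNAJA4 was at 1881, 1841 and 1886 normalized counts in siControl and at 336, 432 and 620.1 in siPVT1, a log2 fold change of −2.01 (SE 0.188, edgeR adjusted p = 5.06e-05). DNAJA1, the most abundant of the class, was at 13705, 11787 and 13194 in siControl and at 3579, 4830.5 and 7567 in siPVT1, with a log2 fold change of −1.27 (SE 0.234, edgeR adjusted p = 0.0019). The mitochondrial DNAJA3 was just inside 2-fold at −0.99, and DNAJA2 was at −0.41.

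The DNAJB class had members that moved in opposite directions within the cytosol. DNAJB4 fell from 2013, 1784 and 1874 normalized counts to 638, 735 and 899, a log2 fold change of −1.32 (SE 0.121, edgeR adjusted p = 4.72e-05). DNAJB1 (HSP40), the main stress-inducible partner of HSP70, was lower but under 2-fold, at 2741, 2606 and 2956 in siControl and 1359.7, 1481 and 1868 in siPVT1 with a log2 fold change of −0.82 (edgeR adjusted p = 0.000491). DNAJB5 rose from 181, 168 and 184 normalized counts to 758, 756 and 699, the largest rise of the 74 genes, with a log2 fold change of 2.05 (SE 0.085, edgeR adjusted p = 1.40e-06). DNAJB6, which suppresses aggregation of polyglutamine proteins, was at 0.74 and DNAJB2 at 0.39, both higher by the adjusted p. Of the 5 tested cytosolic DNAJB genes 2 were thus lower and 3 higher by the adjusted p, and their median was 0.39. By that measure 28.4% of all genes were lower and 29.5% higher.

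The DNAJC class is the most diverse, with J domains joined to many other functions, and 25 of its 28 genes were tested. Its median log2 fold change was −0.12, with 2 genes lower and 2 higher past both thresholds, and 7 and 9 by the adjusted p. These counts are near the shares of all genes, 9.64% lower and 11.8% higher past both thresholds and 28.4% and 29.5% by the adjusted p. DNAJC11, a protein of the mitochondrial cristae-organizing complexes, fell from 2363, 2166 and 2299 normalized counts to 695, 688 and 971 (log2 fold change −1.53, SE 0.132, edgeR adjusted p = 3.29e-05). DNAJC2, which binds ribosomes and assists new polypeptide chains, was at 1256, 1072 and 1212 in siControl and 459.9, 511 and 682 in siPVT1 (log2 fold change −1.10, edgeR adjusted p = 0.000306). In the other direction, DNAJC18, an ER membrane J protein, was at 437, 434 and 419 in siControl and at 915, 978 and 1022 in siPVT1 (log2 fold change 1.18, edgeR adjusted p = 7.83e-06). DNAJC4, a small mitochondrial J protein, was at 179, 159.6 and 166 in siControl and at 404, 363 and 288 in siPVT1 (log2 fold change 1.06, edgeR adjusted p = 0.000285). Without siPVT1 replicate 1, DNAJC2 and DNAJC4 came under the 2-fold threshold, at −0.99 and 0.93, as did HSP90AB1 at −0.97. HSP90AB1 was also just under it without siPVT1 replicate 2 (−0.99) and was lost in the test against a 2-fold change.

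The J proteins of the ER lumen serve HSPA5. DNAJC10 (ERdj5), a disulfide reductase, rose to 1.38 times its siControl mean (log2 fold change 0.46, edgeR adjusted p = 0.00015), and DNAJB9 (ERdj4) to 1.36 times (0.44, edgeR adjusted p = 0.00208). DNAJC3 was at 0.16 (edgeR adjusted p = 0.31) and DNAJB11 (ERdj3) at −0.03 (edgeR adjusted p = 0.847), with overlapping groups for both. DNAJC25, an ER membrane protein, was at 677, 669 and 702 normalized counts in siControl and at 435, 455 and 507 in siPVT1 (log2 fold change −0.55, edgeR adjusted p = 0.00067), whereas its readthrough transcript DNAJC25-GNG10 was at 194, 215 and 225 and at 359, 323 and 372 (0.73, edgeR adjusted p = 0.000411). These 2 features share exons, so their counts rest on how reads were divided.

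Among the BAG cochaperones, 4 of 6 were lower by the adjusted p and BAG2 passed both thresholds. For all genes the shares were 28.4% lower by the adjusted p and 9.64% lower past both thresholds. BAG2 was at 1594, 1507 and 1597 normalized counts in siControl and at 516, 567 and 900.2 in siPVT1 (log2 fold change −1.24, SE 0.187, edgeR adjusted p = 0.000657). BAG1 was at −0.81, BAG3, the partner of HSPB8, at −0.78 and BAG4 at −0.34. BAG6, which guides tail-anchored membrane proteins and had the highest normalized count of the family, not corrected for length, was higher, at 0.44 (edgeR adjusted p = 0.000436). BAG5 was at −0.01 and did not pass the adjusted p.

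HSF1 was at 4286, 4106 and 4312 normalized counts in siControl and at 2921, 2602 and 2409 in siPVT1, a log2 fold change of −0.68 (SE 0.078, edgeR adjusted p = 0.000149). All siPVT1 libraries lay below all siControl libraries, although the change was under 2-fold. HSF2 was at 417, 407 and 389.8 in siControl and at 457, 408 and 473 in siPVT1, with overlapping groups (log2 fold change 0.14, edgeR adjusted p = 0.206). For HSF1 the lowest siPVT1 library was replicate 3, which for most of the lower chaperone genes was the highest. A link between HSF1 and these genes was not tested. Neither heat shock factor passed both thresholds with edgeR or DESeq2. HSF1 activity depends on the protein's trimers and phosphorylation, which RNA counts do not measure.

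Of the antisense and other transcripts, DNAJC9-AS1 was lower past both thresholds, at 68.6, 68.7 and 58.2 normalized counts in siControl and 25.6, 32.8 and 31.9 in siPVT1 (log2 fold change −1.11, edgeR adjusted p = 0.00143). DNAJC9, a histone chaperone J protein encoded nearby on the other strand, was at −0.61 (edgeR adjusted p = 0.0179).

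Within siPVT1, replicate 3 lay nearest to siControl for 13 of the 15 lower genes, and replicate 2 for the other 2. For all 1833 genes lower in siPVT1 by the same thresholds, replicate 3 was nearest in 50.5%. The median log2 difference of the 15 genes from the siControl mean was −1.85 in replicate 1, −1.72 in replicate 2 and −1.15 in replicate 3. PVT1 was at 2350, 2111 and 2062 in siPVT1 replicates 1 to 3, and a link between these levels and the chaperone genes was not tested. All 15 genes stayed past both thresholds without replicate 3, with DNAJA3 and HSPA9 added.

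**Figure D4:**
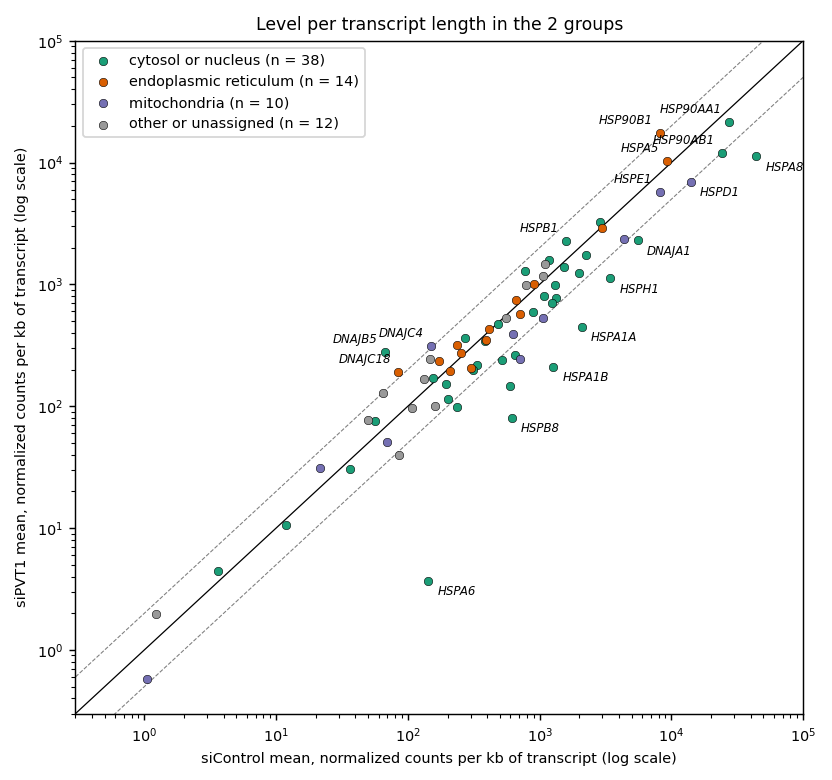
Each point is 1 tested gene, with its mean normalized count per kb of canonical transcript in siControl on the x axis and in siPVT1 on the y axis, both on log scales. The solid line marks equal levels and the dashed lines a 2-fold difference. HSPA8 moves from 44074 to 11272 per kb and HSP90B1 from 8234 to 17636.

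Because chaperones work in stoichiometric sets, the order of levels was compared per kb of transcript. In siControl the order was HSPA8 at 44074 ± 2099 normalized counts per kb (SD, n = 3), HSP90AA1 at 27465 ± 1216, HSP90AB1 at 24253 ± 791 and HSPD1 at 14015 ± 1069. HSPA5 at 9232 ± 323, HSP90B1 at 8234 ± 305 and HSPE1 at 8144 ± 1013 followed, and the spread of HSPE1 met those of the other 2. In siPVT1, HSP90AA1 was first at 21580 ± 4369 and HSP90B1 was second at 17636 ± 703, a pair whose spreads met. HSP90AB1 at 11904 ± 1786, HSPA8 at 11272 ± 3669 and HSPA5 at 10328 ± 1569 came next and could not be ordered. HSPH1 moved from rank 10 to rank 20 and HSPA1A from rank 14 to rank 33.

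Other genes of the chaperone system, from lists that follow their known roles, were read from the same fit. The lists were drawn up with earlier results of these data known, so their counts are a description and not independent support. Of 41 such genes 38 were tested, and 5 were lower and 2 higher past both thresholds, against 9.64% and 11.8% of all genes. By the adjusted p, 16 of the 38 were lower and 9 higher, against 28.4% and 29.5% of all genes. Among 18 cytosolic cofactors of HSP70 and HSP90, 11 were lower and 2 higher by the adjusted p with a median of −0.59, and 3 passed both thresholds, all lower. These were CHORDC1, an HSP90 cochaperone, at −1.35, HSPBP1, a nucleotide exchange factor of HSP70, at −1.09 and TTC4, which bridges HSP70 and HSP90, at −1.05. Of 5 further genes induced by HSF1, SERPINH1 (HSP47), the collagen chaperone of the ER, was lower past both thresholds at −1.24, 3 were lower and 1 higher by the adjusted p, and the median was −0.61. CRYAB, a small heat shock protein with no HSPB symbol, was at 21.0, 21.2 and 26.8 normalized counts in siControl and 5.57, 3.28 and 3.76 in siPVT1 (log2 fold change −2.43, edgeR adjusted p = 0.000439). CRYAB passed the count filter only through siControl, where it was high, so its call is a description and not support for a fall. HSF4, a heat shock factor known from the lens, was higher at 1.20.

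For 7 partners of the ER chaperones the median was 0.30, and 4 were higher by the adjusted p, against 29.5% of all genes. PDIA4, a protein disulfide isomerase, was higher past both thresholds at 867, 929 and 920.0 normalized counts in siControl and 2226, 2345 and 2420.5 in siPVT1 (log2 fold change 1.36, edgeR adjusted p = 2.17e-06). HYOU1, the HSP110 of the ER, was at 0.67, the lectin chaperone CALR at 0.41 and SEC63, a J protein of the translocation channel, at 0.16, all higher by the adjusted p. None was lower at any of these thresholds, with 0 lower by DESeq2 and 0 at an unadjusted p below 0.05. For 6 mitochondrial partners the median was −0.10 and none passed both thresholds with edgeR or DESeq2. TRAP1, the HSP90 of mitochondria, was lower by the adjusted p at −0.50 and the protease LONP1 was higher at 0.67, while at an unadjusted p below 0.05 there were 2 lower and 1 higher.

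Of the 17 genes not tested, 10 had at most 3 counts in every library and 5 of these were at 0 in all 6. The 17 include HSPB2, HSPB3, HSPB7 and HSPB9 of the small heat shock proteins and DNAJB3, DNAJB7, DNAJB8 and DNAJB13 of the DNAJB class, so a difference in those genes was not detectable at this depth.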

How the data were processed

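The authors prepared poly(A) mRNA libraries with a KAPA mRNA HyperPrep kit and sequenced them single-end. The submitters' processing notes name bcl2fastq 2.20.0, STAR 2.7.3a, Salmon 0.14.1, DESeq2 1.28.1 and GRCh38.p13. The values the authors deposited are estimated counts for each symbol, rounded to whole numbers and not normalized, and these were used as given. Salmon splits reads of near-identical genes by estimation, so counts of close paralogs are uncertain. The strand setting is not given in the sources used here.

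Groups and replicate numbers came from the titles. edgeR 4.0.16 (R 4.3.3, TMM, quasi-likelihood test, siRNA as the only term) was fitted on the 19008 genes that reached 5 normalized counts in 3 or more libraries, and p-values were adjusted over all of them. The study's thresholds were kept, an adjusted p under 0.05 with a log2 fold change of 1 or more in size. The SE of a fold change was taken as its size over the square root of F. The fit was tested on simulated data first. Libraries of the same group were further apart than sampling noise (chi-square per degree of freedom 1.75 to 45.3), so each counts as 1 sample.

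Symbols were matched to GENCODE v44 (HSPB11 under the symbol IFT25), and promoter windows came from RefSeq. Lengths per kb are those of the canonical transcript. Genes named are PVT1, the heat shock factors, all members past both thresholds and, per family, the most abundant and those with the largest rise and fall by adjusted p, with others given by value. The value of 1 marker gene is not reported here. The members and lists were chosen with earlier results of these data known. Alternatives were DESeq2 1.42.0, its size factors, total count scaling, no filter, filterByExpr, a replicate block, each library left out, a test against a 2-fold change, HSPA1A and HSPA1B summed and, chosen after seeing the data, the dropped pseudogenes added to their parent genes.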

Additional observations from a re-analysis of the deposited data

How the results depend on the processing

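Of the 19 calls past both thresholds, all 19 were kept with DESeq2, its size factors, no filter, filterByExpr and added pseudogenes. The test against a 2-fold change kept 9 lower and 1 higher. Scaling by the total count alone moved the median of all genes to −0.15 and left 2 higher calls, without HSP90B1 and DNAJC4, and it gave 1835 higher and 2355 lower genes in all, in place of 2248 and 1833. With it the medians were −0.71 for BAG, −0.27 for DNAJC, −0.42 for HSF, −0.79 for HSP110, −0.66 for cytosol or nucleus, −0.92 for mitochondria and 0.18 for genes of other places. The medians of DNAJB (−0.023) and of the ER (−0.0054), DNAJC13 (−0.0070) and HSF2 (−0.010) changed sign under that scaling. The cytosolic median was −0.62 without a filter, −0.61 with filterByExpr and −0.41 with HSPA1A and HSPA1B summed, which changes the number of genes in it. With 1 library left out, lower calls numbered 12 to 17 and the medians ran from −0.61 to −0.47 for the cytosol, from −0.80 to −0.62 for mitochondria, from 0.026 to 0.19 for the ER and from −0.16 to −0.0075 for DNAJC, and DNAJB11 from −0.23 to 0.07, being 0.0032 without siControl replicate 1 and 0.072 without siPVT1 replicate 1. The cause of these shifts was not tested.

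The same replicate numbers in both groups did not pair the samples, with correlations of −0.037, 0.029 and 0.0023 between same-numbered deviations over 19008 genes. With the number as a replicate block, 15 genes were lower and 4 higher, the same 19 genes, and DNAJC13 lost its adjusted p. The 3 libraries per group limit the precision of every standard error, and intervals from counting were not used. Of the members with few counts, only HSPA7 was added to the lower calls by the fit without a filter, which tested 12 more members. HSPA7 had counts in siControl alone, so that call is not support for a fall.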
